A study of Mus musculus with 12 samples.

Results

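Acetylated histone H3 lysine 27 (H3K27ac) was examined in mouse embryonic stem cells at 1 kb bins where it stood high over its surroundings and tagged GZF1 did not reach a set limit. Of 2462755 autosomal bins, 1341 (0.0545%) met this rule and are called members here. Each library was divided by its autosomal mean, which gives a read density, and local enrichment was the log2 of density plus 0.5 over the median density of the 10 bins on each side plus 0.5. Members stood 2.38-fold or more over the surroundings on this scale for H3K27ac, as did 4650 bins (0.189%) in all, and less than 2-fold (a local enrichment below 1) with anti-FLAG in both of the lines that carry Gzf1-Flag. A local enrichment of 1 or more with anti-FLAG was found in 0.231% of all bins in Cas9 and 0.529% in RGM. The members were thus chosen by the values of these 3 libraries, which are given as a description only.

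The series has 12 libraries, and the 8 used here have no replicates, so no test between libraries was possible. From the Cas9 line (Cas9-GFP) came wild-type cells with anti-H3K27ac, wild-type cells with anti-GZF1, a control and a Gzf1 knockout with anti-GZF1, clone 35 with ectopically expressed Gzf1-Flag and anti-FLAG M2, and an input without antibody. From RGM, a 129xCAST hybrid line, came wild-type cells with anti-GZF1 and clone 56 with ectopically expressed Gzf1-Flag and anti-FLAG M2. All chromatin was fixed with formaldehyde and digested with micrococcal nuclease. Each Gzf1-Flag line was 1 clone, the labels do not name the promoter of the transgene, no anti-FLAG library without the tag was analysed here, and the single input came from Cas9. Depth ran from 10.1 M reads (3.93 per autosomal bin) in the input to 94.2 M in the control (35.8 per bin), with 40.8 M (15.9 per bin) for H3K27ac. Intervals are 95% exact Poisson for a density and exact binomial for a ratio, and they cover counting error only, since sequenced reads are not independent molecules.

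H3K27ac is laid down by the acetyltransferases p300 and CBP, removed by histone deacetylases and read by bromodomain proteins, and it marks nucleosomes beside active promoters and active enhancers. GZF1 is a zinc-finger protein with a BTB domain that binds DNA. Many active mammalian promoters lie in CpG islands, stretches rich in unmethylated CpG that are bound by factors such as NRF1, a regulator of nuclear genes for mitochondrial function, by SP and KLF proteins at GC boxes, by NF-Y at CCAAT boxes and by YY1.

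The promoters of 4 of the 20 highest regions named further on show the sequences on which the results below turn. For each, the 250 bases before the annotated start are printed 5′ to 3′ on the strand of the gene, from the RefSeq promoter table on GRCm38.p6 (mm10). Capitals mark exact matches, on either strand, to the palindromic NRF1 site, the YY1 site, the CCAAT box bound by NF-Y, the GGGCGG box bound by SP and KLF proteins, and the word TATAAA. Cog6 is shown for its pair of NRF1 words, Vapb for an NRF1 word beside GC boxes, Tepsin for a YY1 word, and Rad51ap1, the highest in local enrichment among the named regions, which has no NRF1, YY1 or GC box word in the printed part, for the contrast.
Rad51ap1, chr6:126939588-126939837, minus strand: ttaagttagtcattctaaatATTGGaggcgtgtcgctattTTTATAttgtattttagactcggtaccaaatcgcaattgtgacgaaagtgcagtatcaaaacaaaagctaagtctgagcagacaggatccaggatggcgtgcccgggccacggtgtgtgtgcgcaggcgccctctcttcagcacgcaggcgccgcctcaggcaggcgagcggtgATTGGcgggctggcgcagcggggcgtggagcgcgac
Cog6, chr3:53017224-53017473, minus strand: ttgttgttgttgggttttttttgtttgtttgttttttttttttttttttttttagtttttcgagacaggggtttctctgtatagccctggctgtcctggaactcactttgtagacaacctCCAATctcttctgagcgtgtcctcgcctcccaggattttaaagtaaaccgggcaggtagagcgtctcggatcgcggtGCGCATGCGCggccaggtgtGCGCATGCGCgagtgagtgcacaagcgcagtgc
Vapb, chr2:173737321-173737570, plus strand: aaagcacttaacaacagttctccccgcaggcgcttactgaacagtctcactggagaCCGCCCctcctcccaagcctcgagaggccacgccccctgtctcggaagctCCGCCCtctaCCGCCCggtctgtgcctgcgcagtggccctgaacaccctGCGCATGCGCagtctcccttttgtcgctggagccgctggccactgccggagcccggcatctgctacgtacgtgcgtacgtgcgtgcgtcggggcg
Tepsin, chr11:120098732-120098981, minus strand: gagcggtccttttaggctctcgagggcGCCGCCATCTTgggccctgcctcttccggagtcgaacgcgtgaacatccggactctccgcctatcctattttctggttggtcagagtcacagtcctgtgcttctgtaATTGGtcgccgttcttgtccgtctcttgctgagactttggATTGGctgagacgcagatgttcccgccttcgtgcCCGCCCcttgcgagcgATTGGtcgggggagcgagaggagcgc
The first Cog6 word is centred 48 bases before the annotated start and the second lies nearer to it, and the Vapb word is centred 90 bases before its start. The Tepsin word is centred 218 bases before the start and lies on the opposite strand, so that its complement is printed. Matches are letters in a window and do not show that a factor was bound.

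The member bins formed 1305 regions, of which 1269 were a single bin and 36 held 2 member bins. H3K27ac reads per member ran from 11 to 178.05, with a median of 60 and a median local enrichment of 1.36. The set divides by depth: 770 members held 50 or more H3K27ac reads and 571 held fewer. The deeper members lay in well-covered chromatin, with a median local H3K27ac background of 1.52 times the autosomal mean. The shallower ones lay in poorly covered stretches, with a background of 0.315. Among their flanking bins 43.9% had no input read, against 3.91% for the deeper members and 17.2% of all autosomal bins.

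Most members sat near the limits that define them. With the local background held fixed, the counting interval of the bin reached below the H3K27ac threshold in 1129 members (84.2%). It reached the limit of 1 with anti-FLAG in 559 members in Cas9, in 733 in RGM and in 908 (67.7%) in either line. The intervals of all 3 libraries kept clear of their limits in 43 members. Just inside the H3K27ac threshold were bins at 1.25017, 1.25031 and 1.25033, and just outside were bins at 1.24944 and 1.24949. With anti-FLAG the nearest bins were at 0.999992 inside and 1.00228 outside in Cas9, and at 0.999586 inside and 1.00018 outside in RGM.

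Being below the limit with anti-FLAG was not the same as lying at background. Local enrichment with anti-FLAG was above 0 in 1293 members (96.4%) in Cas9 and in 1273 (94.9%) in RGM, against 48.3% and 48.1% of all autosomal bins. The medians were 0.63 and 0.72, against a median of 0 over all autosomal bins. Pooled over members, the anti-FLAG density was 1.80 times (1.79 to 1.82) that of the flanks at 3 to 10 kb in Cas9 and 1.91 times (1.90 to 1.93) in RGM. The higher of the anti-FLAG values was 0.75 to 1 in 761 members (56.7%), 0.5 to 0.75 in 357 (26.6%) and below 0.5 in 223 (16.6%). It was below 0 in 5. Members with a gene start inside the bin lay nearer to the limit than the members as a whole, among values that the rule itself cut off at 1. Of 474 such bins, 368 (77.6%) had a value of 0.75 or more and 13 (2.74%) a value below 0.5.

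**Figure D1:**
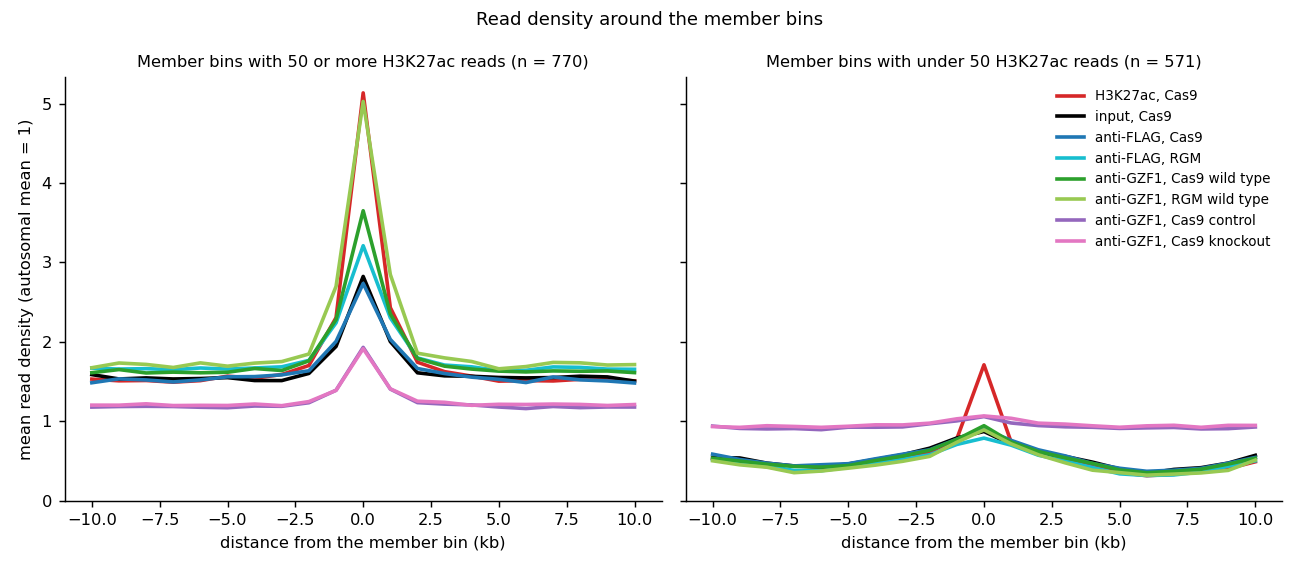
Mean read density (autosomal mean = 1, y axis) by distance from the member bin in kb (x axis) for the 8 libraries, at the 770 members with 50 or more H3K27ac reads (left) and the 571 with fewer (right). On the left every library rises in the middle, H3K27ac and RGM wild-type anti-GZF1 to about the same height. On the right H3K27ac stands above the others at the middle bin, the other libraries rise less, and the control and knockout run nearly flat.

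The libraries that the rule did not use were raised at the members as well. In Cas9 wild-type anti-GZF1 the local enrichment had a median of 0.83 and was 1 or more in 417 members (31.1%), against 0.482% of all autosomal bins. In RGM wild-type anti-GZF1 the median was 1.07, and 716 members (53.4%) reached 1, against 2.32% of all bins. Pooled density over the flanks was 2.20 times (2.19 to 2.22) in Cas9 and 2.81 times (2.78 to 2.84) in RGM. The input was raised too, with a median of 0.69, 444 members (33.1%) at 1 or more against 7.48% of all bins, and a pooled 1.83 times (1.79 to 1.86) its flanks. The pooled rise over the flanks with anti-FLAG in Cas9 was thus of about the size of that of the input. With H3K27ac it was 3.46 times (3.43 to 3.48). The part of the input's rise in that of the other libraries was not tested.

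With the same anti-GZF1 antibody the control and the knockout rose less. Their medians were 0.35 and 0.29, with 29 members (2.16%) at 1 or more in the control against 0.0398% of all bins, and 36 (2.68%) in the knockout against 0.045%. Pooled density was 1.46 times (1.45 to 1.47) the flanks in the control and 1.42 times (1.41 to 1.43) in the knockout. The ratio of knockout to control was 0.996 (0.986 to 1.007) pooled over members, with the interval of single bins above 1 in 86 (6.41%) and below 1 in 98 (7.31%). Over all autosomal bins these shares were 6.6% and 6.65%, and in the tagged H3K27ac-high bins 7.86% and 7.37%, so the members lay near the background. Among deeper members with a start, the lowest ratio was at Fsd1, a gene of a fibronectin and SPRY domain protein, which had 22.4 reads in the knockout and 58.35 in the control, for a ratio of 0.417 (0.240 to 0.684). The highest was at the non-coding gene 9530077C05Rik, with 66.35 and 32.05 reads, a ratio of 2.25 (1.45 to 3.53). Both were picked as extremes of the 449 deeper members with a start in the bin.

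The median differed between deeper and shallower members in the anti-GZF1 libraries and hardly in the input. The 770 deeper members had medians of 0.95 and 1.32 with anti-GZF1 in Cas9 and RGM wild type, and the 571 shallower ones had 0.54 and 0.60. The added 0.5 weighs more where the background is low, and its part in these medians was not tested. Pooled over the flanks, without it, Cas9 wild type was at 2.23 times in the deeper and 2.05 in the shallower members. RGM wild type was at 2.92 and 2.17 times. The control was at 0.53 in the deeper and 0.08 in the shallower members and the knockout at 0.48 and 0.06. The input stood at 0.68 in the deeper and 0.69 in the shallower members, but it reached 1 or more in 28.2% of the deeper and 39.8% of the shallower ones. The ratio of Cas9 wild-type to control anti-GZF1 density was 1.89 (1.87 to 1.91) in the deeper and 0.892 (0.872 to 0.912) in the shallower members. As a ratio of densities, its direction over all members, 1.602 (1.586 to 1.618), therefore rests on the deeper bins. The median local background of the shallower members was 0.858 in the control and 0.433 in Cas9 wild type. Over the flanks the control was at 1.63 times in the deeper and 1.15 in the shallower members, below Cas9 wild type in both. In the shallow class of 571, RGM wild-type anti-GZF1 had no read in 40 members and RGM anti-FLAG none in 19. Over all 2462755 autosomal bins there was no read in 221010 and 150356, which are larger shares.

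H3K27ac stood above the input in the members as a whole, and beyond counting error in fewer single bins. The ratio of H3K27ac to input density, pooled over members, was 1.84 (1.81 to 1.88). Its interval lay above 1 in 514 members (38.3%) and below 1 in none, against 3.73% and 4.64% of all autosomal bins. In the tagged H3K27ac-high bins it lay above 1 in 29.5% and below 1 in 1.24%. H3K27ac density was above that of Cas9 wild-type anti-GZF1 in 726 members (54.1%, against 5.7% of all bins) and below it in 7 (0.522%, against 5.14%). These counts share the H3K27ac value that chose the bins. Against RGM wild-type anti-GZF1 391 members (29.2%) were above, against 6.75% of all bins, and 100 (7.46%) below, against 6.16%, and in the deeper members the pooled ratio was 1.02 (1.01 to 1.04).

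The 3309 H3K27ac-high bins that reached the limit with anti-FLAG in either line (1464 in both, 279 in Cas9 and 1566 in RGM) were higher in median than the members as a whole in every library. Their median local enrichment was 1.49 for H3K27ac, 1.07 for the input, 1.29 and 1.82 for anti-GZF1 in Cas9 and RGM wild type, 0.47 for the control and 0.45 for the knockout. The deeper members alone stood above these tagged bins with 0.53 for the control and 0.48 for the knockout. The pooled ratio of H3K27ac to input was lower in them, at 1.45 (1.43 to 1.46), than in the members, at 1.84. The anti-FLAG values that separate the sets are not evidence of this order, and how far the limit itself sets the gap in the other libraries was not tested.

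**Figure D2:**
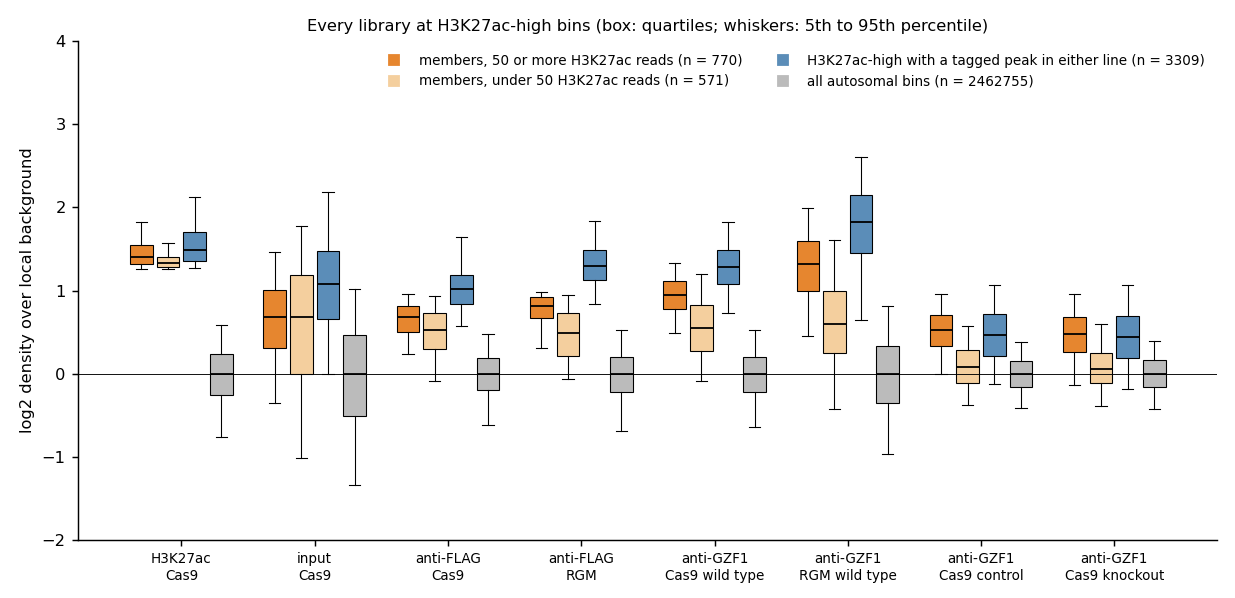
Local enrichment (log2 density over local background, y axis) in each of the 8 libraries for members with 50 or more H3K27ac reads, members with fewer, H3K27ac-high bins with a tagged peak in either line, and all autosomal bins; boxes span the quartiles, the line is the median and whiskers run from the 5th to the 95th percentile. Deeper members lie between all bins and the tagged bins with wild-type anti-GZF1, with medians of 0.95 in Cas9 and 1.32 in RGM.

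Gene starts were frequent among the members. An annotated start lay in the bin in 474 members (35.3%), against 1.11% of all autosomal bins, and in the bin or an adjoining bin in 584 (43.5%), against 3.18%. Starts on both strands fell in the same bin in 70 members (5.22%), against 0.0651% of all bins. A further 198 members (14.8%) lay inside a gene with no start or end in the bin or beside it, against 42.4% of all bins, and 394 (29.4%) had no gene, against 48.2% of all bins. Starts of chromosome 18, which holds 35 members, were not used here, so the shares with a start are slightly low. Where a start lay only in an adjoining bin, the member was downstream of it in 45, upstream in 53 and between starts in 12. The downstream share was 40.9%, against 47.3% of all such bins and 125 of 250 of the tagged ones.

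Position followed depth. Of the deeper members 449 (58.3%) had a start in the bin and 535 (69.5%) in the bin or beside it, and 38 (4.94%) had no gene. Of the shallower members 25 (4.38%) had a start in the bin and 356 (62.3%) had no gene. Starts on both strands were in 68 deeper members (8.83%) and 2 shallower ones. The tagged H3K27ac-high bins had a start in 1716 of 3309 (51.9%). Members with anti-FLAG below 0.5 in both lines rarely held a start, in 13 of 223 (5.83%), and most of these 223 (173) were shallow. Among the 50 deep ones 12 (24.0%) held a start, against 84 of 172 (48.8%) at 0.5 to 0.75 and 353 of 548 (64.4%) at 0.75 to 1. These classes divide the anti-FLAG values that chose the members, and bins at 1 or more are in the tagged set.

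**Figure D3:**
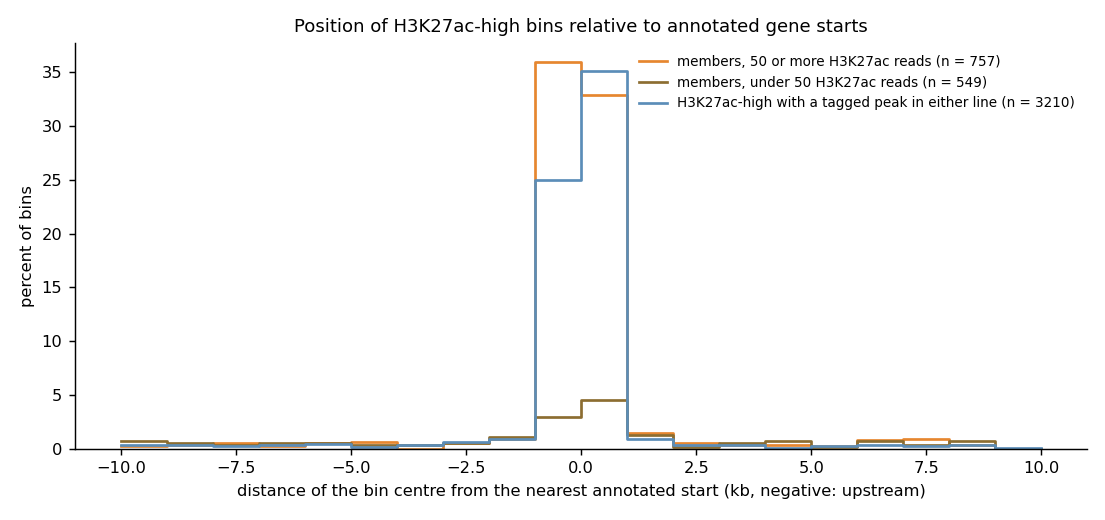
Percent of bins (y axis) by distance of the bin centre from the nearest annotated start in kb (x axis, negative upstream), for deeper members, shallower members and H3K27ac-high bins with a tagged peak. Deeper members and tagged bins pile up within 1 kb on each side of starts, and shallower members are spread out. Bins beyond 10 kb are counted in the percentages but not drawn.

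Promoters in member bins were rich in CpG. The 609 promoters (550 genes) had a median GC content of 62.3% and a median of 25 CpG in 300 bases, against 53% and 7 over 31396 autosomal promoters. At least 10 CpG were present in 581 (95.4%) of them, against 44.0% of all. Promoters in tagged H3K27ac-high bins had a median of 67.3% GC and 29 CpG. Of 16456 protein-coding genes with a known start, 478 (2.90%) had it in a member bin, and of 9291 long non-coding RNA genes 72 (0.775%).

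Among the words searched, the NRF1 site stood out by its share. It was found in the promoters of 53 of the 474 member bins with a start (11.2%), against 251 of 27441 bins with a start (0.915%) and 242 of 11366 bins with a start of 10 or more CpG (2.13%). In tagged H3K27ac-high bins it was found in 116 of 1716 (6.76%). Member promoters with the word numbered 70 in 61 genes, and overlapping promoters of the same bin share sequence. Highest in H3K27ac among them were the shared start of Gm34790 and Mocs2, then Cog6, Vapb, Gm15506, Leng8 and Alas1, the last of which encodes the first enzyme of heme synthesis. The YY1 word was found in 16 member bins (3.38%), against 0.623% of bins with a start, 1.49% of those with 10 or more CpG and 1.46% of tagged bins.

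The other words showed smaller contrasts or the opposite one. GGGCGG was found in 305 member bins (64.3%), below the 71.2% of bins with a start of 10 or more CpG and the 83.3% of tagged bins. CCAAT was in 41.6% of member bins, against 37.8% and 37.2% in the same order. TATAAA was in 5.27%, against 6.43% and 4.66%, and the E box CACGTG in 13.7%, against 11.6% and 13.3%. The cAMP response element TGACGTCA was in 3.16% of member bins and 3.38% of tagged bins. The GZF1 element was found in 4 of all 31396 promoters (0.0127%), none of them in a member or tagged bin, which at that share says nothing about either set. The bins with a start and 10 or more CpG hold the members and tagged bins among them, and all words were searched on both strands of the 300-base promoters.

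Deeper members with the NRF1 word in a promoter had similar medians to those without it with H3K27ac, input and anti-FLAG. The rule set the least H3K27ac value and the limit with anti-FLAG in both groups, so their likeness in these libraries was partly fixed beforehand. Over 53 bins with and 396 bins without the word, the median local enrichment for H3K27ac was 1.49 and 1.42. It was 0.68 and 0.74 in the input, 0.69 and 0.70 with anti-FLAG in Cas9, and 0.82 and 0.85 with anti-FLAG in RGM. With wild-type anti-GZF1 the bins with the word stood lower, at 0.90 against 1.01 in Cas9 and 1.18 against 1.43 in RGM wild type, and slightly higher in the other anti-GZF1 libraries, at 0.61 against 0.56 for the control and 0.58 against 0.51 for the knockout.

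**Figure D4:**
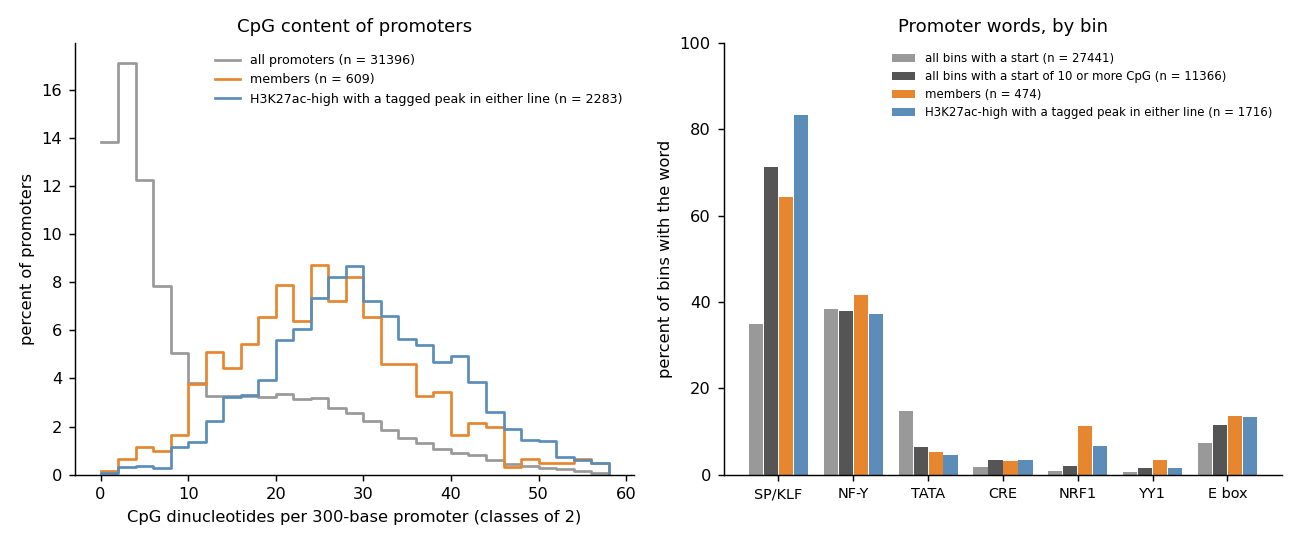
Left: percent of promoters (y axis) by CpG count per 300 bases (x axis) for all promoters, member promoters and promoters of tagged H3K27ac-high bins. Right: percent of bins with a start (y axis) that hold each promoter word. Member promoters peak far to the right of all promoters, and the NRF1 word is in 11.2% of member bins against 2.13% of bins with a start of 10 or more CpG.

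Among regions with 50 or more H3K27ac reads and an input density of 0.25 to 3, the 20 highest had H3K27ac densities of 6.02 to 9.90 (median 7.18) and local enrichment of 1.88 to 2.34. They were raised with anti-GZF1 to 1 or more in 10 of 20 in Cas9 and 15 of 20 in RGM, in 2 of 20 in the input, in 1 of 20 in the control and in 2 of 20 in the knockout. The bound on input density had left out 327 of the 1341 members as above 3, so the input count was partly set by it. Of the 20, 15 had an annotated start in the bin and 1 in an adjoining bin. A gene end lay at 2, Zkscan16 and Gm34806 with Map3k2, the latter on chromosome 18, whose starts were not used. The other 2 were bins of chromosome 5 without a gene (75067001 to 75068000 and 112686001 to 112687000).

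The highest was the shared start of D6Wsu163e and Rad51ap1, which encodes a DNA repair protein (chr6:126939001-126940000). It held 157 H3K27ac reads, a density of 9.89 (8.40 to 11.6), and 8 input reads, a density of 2.04 (0.880 to 4.02). Anti-FLAG density was 3.23 (2.59 to 3.99) in Cas9 and 4.03 (3.31 to 4.89) in RGM, with local enrichment of 0.94 and 0.89, close to the limit. With anti-GZF1 the density was 3.62 (2.88 to 4.46) in Cas9 and 11.1 (8.93 to 13.5) in RGM wild type, 2.66 (2.15 to 3.25) in the control and 2.09 (1.63 to 2.65) in the knockout. H3K27ac and RGM wild-type anti-GZF1 were the high libraries here, and their intervals overlap.

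Cdc34, an E2 ubiquitin-conjugating enzyme gene (chr10:79682001-79683000), showed the same pair of high libraries, with a lower anti-FLAG density than Rad51ap1 in Cas9 and not in RGM. Its densities were 9.90 (8.40 to 11.6) for H3K27ac from 157.1 reads, 2.85 (1.40 to 5.01) for the input, and 2.33 (1.81 to 3.004) and 4.33 (3.59 to 5.22) with anti-FLAG in Cas9 and RGM. With anti-GZF1 they were 3.496 (2.77 to 4.32) in Cas9 wild type, 10.3 (8.20 to 12.6) in RGM wild type, 1.79 (1.38 to 2.28) in the control and 1.48 (1.10 to 1.97) in the knockout. Its upstream neighbour bin was also a member, with 94.05 H3K27ac reads.

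At Cog6, a subunit of the oligomeric Golgi complex (chr3:53017001-53018000), H3K27ac had the highest density. Its density was 8.19 (6.84 to 9.72) from 130 reads, against 1.53 (0.561 to 3.33) in the input, 2.97 (2.36 to 3.70) and 2.31 (1.76 to 2.96) with anti-FLAG in Cas9 and RGM, and 3.33 (2.61 to 4.13) and 3.39 (2.26 to 4.84) with anti-GZF1 in Cas9 and RGM wild type. Over its surroundings wild-type anti-GZF1 was also raised, with local enrichment of 1.11 in Cas9 and 1.503 in RGM, beside 2.17 for H3K27ac and 0.04 for the input. The control and knockout had 2.08 (1.62 to 2.60) and 1.83 (1.39 to 2.35). The ratio of H3K27ac to input was 5.36 (2.40 to 14.9). This is the promoter printed above with 2 NRF1 words.

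Vapb, which encodes a membrane protein of the endoplasmic reticulum (chr2:173737001-173738000), had H3K27ac at 7.02 (5.75 to 8.42) from 111.4 reads and input at 2.04 (0.880 to 4.02). Anti-FLAG stood at 2.20 (1.68 to 2.84) in Cas9 and 2.80 (2.20 to 3.51) in RGM, and wild-type anti-GZF1 at 4.79 (3.95 to 5.76) and 6.85 (5.22 to 8.84). The control was at 1.45 (1.09 to 1.91) and the knockout at 1.503 (1.10 to 1.97). Wild-type anti-GZF1 was thus above both anti-FLAG libraries and above the control without overlap of intervals in Cas9. At the shared start of Tepsin, a trafficking adaptor, and Ndufaf8, an assembly factor of respiratory complex I (chr11:120098001-120099000), all 3 anti-GZF1 libraries of Cas9 were raised over their surroundings. Local enrichment there was 0.87 in the wild type, 1.02 in the control and 1.01 in the knockout, beside 1.95 for H3K27ac, 0.38 for the input, 0.29 and 0.60 with anti-FLAG, and 1.71 in RGM wild type.

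**Figure D5:**
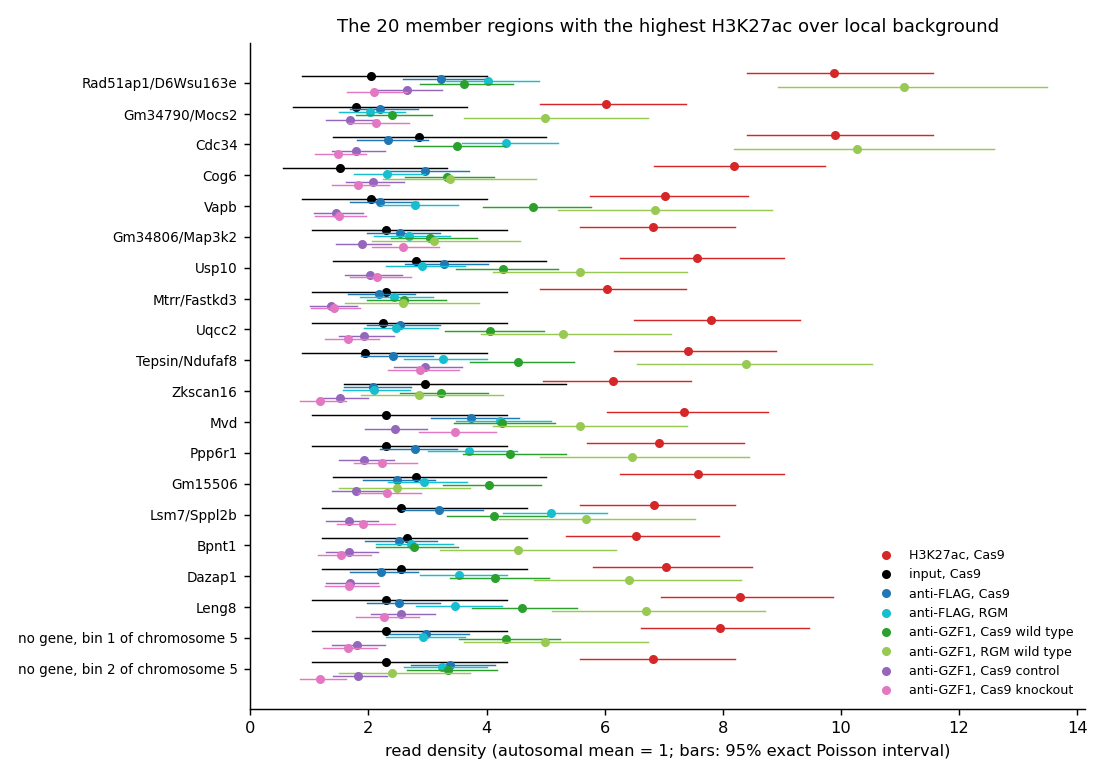
Read density (x axis, autosomal mean = 1) in the 8 libraries at the 20 member regions with the highest H3K27ac over local background (y axis); points are densities and bars 95% exact Poisson intervals. H3K27ac (red) is to the right of the anti-FLAG points in all 20, which the rule that chose them favours, and RGM wild-type anti-GZF1 reaches it in some, such as Rad51ap1 and Cdc34.

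The remaining regions of the 20 were Gm34790 with Mocs2 (molybdopterin synthase), Gm34806 with Map3k2, Usp10 (a deubiquitinase), Mtrr (methionine synthase reductase) with Fastkd3, Uqcc2 (respiratory complex III assembly), Zkscan16, Mvd (mevalonate pathway), Ppp6r1, Gm15506, Lsm7 with Sppl2b, Bpnt1, Dazap1 and Leng8. Their H3K27ac reads and those of the regions above ran from 95.5 to 157.1. Gm34790 with Mocs2 (chr13:114818001-114819000) had the fewest, 95.5 reads, and a local enrichment of 2.28. The regions with 2 member bins that the naming rule gives were Cdc34, Mvd, Dcaf8, Sgta, Abhd10, Taf4, Casp2, Tmed3, Alas1 with 4930500F10Rik, and a pair without a gene on chromosome 10 with 18.7 and 13 H3K27ac reads.

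Uqcc2 (chr17:27133001-27134000) stood above its surroundings with anti-FLAG, with 69.05 and 65.5 reads and local enrichment of 0.57 in Cas9 and 0.25 in RGM. The member medians were 0.63 and 0.72, so only the RGM value was far below them. Its H3K27ac density was 7.81 (6.497 to 9.31) from 123.95 reads, and its input was at 2.25 (1.05 to 4.35). Wild-type anti-GZF1 was at 4.06 (3.30 to 4.97) in Cas9 and 5.30 (3.91 to 7.13) in RGM, with 1.93 (1.501 to 2.44) in the control and 1.66 (1.26 to 2.17) in the knockout. Leng8 (chr7:4137001-4138000), with starts in the bin of which 1 has an NRF1 word centred 178 bases upstream, held 131.65 H3K27ac reads, a density of 8.29 (6.96 to 9.86). Anti-FLAG was at 2.52 (1.97 to 3.21) and 3.46 (2.80 to 4.26), wild-type anti-GZF1 at 4.599 (3.76 to 5.53) and 6.70 (5.11 to 8.71), the control at 2.55 (2.05 to 3.12) and the knockout at 2.27 (1.79 to 2.85). By density the order at both genes was H3K27ac, wild-type anti-GZF1, then anti-FLAG. The intervals of H3K27ac and RGM wild-type anti-GZF1 overlapped at both, and those of Cas9 wild-type anti-GZF1 and RGM anti-FLAG at Leng8. The input interval overlapped those of anti-FLAG and of Cas9 wild-type anti-GZF1 at both, and that of RGM wild-type anti-GZF1 at Uqcc2.

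The 43 members whose counting intervals kept clear of all 3 limits were singled out after their values were seen. Of these 41 had 50 or more H3K27ac reads, 24 had a start in the bin and 7 in an adjoining bin, and 4 had no gene. Of all deeper members 58.3% had a start in the bin, 69.5% in the bin or beside it and 4.94% no gene. Over all autosomal bins these shares were 1.11%, 3.18% and 48.2%. The median local enrichment of the 43 was 1.69 for H3K27ac, 0.51 and 0.60 with anti-FLAG in Cas9 and RGM, and 0.65 in the input. With wild-type anti-GZF1 it was 0.89 in Cas9, with 11 of 43 at 1 or more, and 1.11 in RGM, with 26 of 43. Of all members 31.1% and 53.4% reached 1 there, and of all autosomal bins 0.482% and 2.32%. The control and knockout medians of the 43 were 0.52 and 0.44. The 43 included Cdc34, Vapb, Uqcc2, Tepsin with Ndufaf8, Zkscan16, Dazap1, Leng8 and a bin without a gene of the 20 above.

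A further 6 of the 43, picked after their values were seen, are given as examples. Actn4, an actin cross-linking protein, had the most H3K27ac reads of any member, 178.05, with a local enrichment of 2.06 for H3K27ac, 0.69 and 0.63 with anti-FLAG and 0.90 in the input. Pola2, a subunit of DNA polymerase alpha, had 107.2 reads and 1.85, with 0.38 and 0.63 for anti-FLAG. Ndufb10, a subunit of respiratory complex I, had 116 reads and 1.69, with 0.38 and 0.68. Polrmt, the mitochondrial RNA polymerase, had 87.75 reads and 1.66, with 0.65 and 0.66. The shared start of Mrpl49, a mitochondrial ribosomal protein, and Fau had 102.8 reads and 1.66, with 0.46 and 0.62. Mbd3, a subunit of the NuRD deacetylase complex, had 109.85 reads and 1.81, with 0.70 and 0.70, in the bin beside its start. Local enrichment in the input was 0.85 at Pola2, 0.93 at Ndufb10, −0.68 at Polrmt, 0.63 at Mrpl49 with Fau and 1.29 at Mbd3.

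The shallow members that kept clear of the limits were 2 bins without a gene. The first, at chr10:30214001-30215000, held 28 H3K27ac reads and had a local enrichment of 1.78, with 0.45 and 0.44 for anti-FLAG, 1.05 and 0.12 for anti-GZF1 in Cas9 and RGM wild type, and values of −0.38 for the control and −0.03 for the knockout. Its input was at 0.74 from 3 reads. The other, at chr7:15663001-15664000, held 32.55 reads and had 1.76, with 0.40 and 0 for anti-FLAG, 0.18 and 0.33 for anti-GZF1, and −0.17 in the input. Every other shallow member had an interval that reached at least 1 limit.

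Low signal with anti-FLAG went with low signal with anti-GZF1 at some of these and not at others. Rab23, a small GTPase of Hedgehog signalling, with Gm32229 (chr1:33719001-33720000) had 104.4 H3K27ac reads and local enrichment of 1.74, 0.29 and 0.45 with anti-FLAG, and 0.85 and 1.11 for anti-GZF1 in the wild types. Gm31704 (chr17:88625001-88626000) had 109.65 reads and 1.73, 0.20 and 0.38 with anti-FLAG, and 0.46 and 0.45 for anti-GZF1 in the wild types. The input had 0 reads there, and at Rab23 it had a local enrichment of 0.46. Gm52538 (chr2:172979001-172980000) had 90.05 reads and 1.59, 0.41 and 0.38 with anti-FLAG, 0.16 and 0.85 for anti-GZF1 in the wild types, and an input at −0.02.

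The members with the highest Cas9 wild-type anti-GZF1 values, at an input density of 0.25 to 3, were raised in RGM as well. The start of Nup214, a nuclear pore protein (chr2:31974001-31975000), had 144.05 reads, a density of 6.11 (5.15 to 7.19) and local enrichment of 1.96 in Cas9, and 7.78 (6.03 to 9.88) and 2.002 in RGM wild type. Its control and knockout densities were 1.55 (1.18 to 2.03) and 2.12 (1.66 to 2.69), anti-FLAG was at 0.81 and 0.88, H3K27ac at 1.69 and the input at −0.10. Anapc2, a subunit of the anaphase-promoting complex (chr2:25272001-25273000), had 157.9 reads and 1.85 in Cas9 and 1.49 in RGM wild type, beside 0.40 in the control, 0.41 in the knockout and 0.86 and 0.94 with anti-FLAG. The others were inside A830018L16Rik and at ends of Ttpa and Atg7, with Cas9 values of 1.75, 1.73 and 1.70 and RGM values of 1.67, 1.69 and 1.88. Their input values were 1.37, 0.52 and 0, and the RGM value at A830018L16Rik rests on 9.4 reads over a local background of 0. The 5 lowest, 4 bins without a gene and 1 inside Epha6, were at −0.32 to −0.55 with 7 to 12 reads.

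Genes of the stem cell state did not stand out among the members. Of 26 pluripotency genes that could be placed, 1 had a member bin at its start, or at either end where the strand was not known (3.85%). Of all 25748 genes, which were placed by start alone, 694 (2.70%) had one. The pluripotency gene was Klf5, with 83.95 H3K27ac reads and a local enrichment of 1.29 at one of its ends. The other 25 had no H3K27ac-high bin there, and the highest bin at the starts of Pou5f1, Sox2, Nanog and Klf4 was at 0.48, 0.58, 0.41 and 1.08. None of 24 genes of self-renewal signalling, 36 bivalent developmental genes, 29 differentiated tissue genes and 24 fibroblast feeder genes had a member bin, and at the share of all genes lists of this size hold about 1 or fewer. Local enrichment sets a bin against its surroundings, so a bin within a broadly high stretch can score low. It therefore does not check the labelled cell type through stem cell genes, and H3K27ac density at them was not compared. The feeder genes give 1 H3K27ac-high bin of 24, with a tagged peak.

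Genes of histone acetylation are those whose products write, erase or read the mark. Of 31 writers, erasers and readers 23 were placed by start and the rest by either end. Of the 31, 9 (29.0%) had an H3K27ac-high bin with a tagged peak and no member bin, among them Hdac1 and Brd2, against 8.86% of all genes. Among genes with an H3K27ac-high bin this is 9 of 10 (90%), against 2281 of 2975 (76.7%) of all. Only Sirt1, an NAD-dependent deacetylase, had a member bin (chr10:63338001-63339000), with 74.45 H3K27ac reads and 1.37, anti-FLAG at 0.30 and 0.65, and wild-type anti-GZF1 at 0.89 and 1.55. Control and knockout anti-GZF1 were below their surroundings there, at −0.27 and −0.39. Of 29 housekeeping genes 7 were tagged, among them Actb and Npm1, and 1, Hnrnpa1, had a member bin, with 97.95 reads and 1.45. Of 32 ribosomal protein genes 2 had a member bin, among them Rpl7 at 1.40, by an end of the gene whose strand was not known.

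Of 46 imprinted genes, whose regulation the series concerns, 36 were placed by start and the rest by either end. A member bin was found for 5 of 46 (10.9%), against 2.70% of all genes, which were placed by start alone. Another 5 (10.9%) had a tagged H3K27ac-high bin and no member bin, against 8.86%. Peg3, a zinc-finger gene, and Usp29, a deubiquitinase, share a start bin (chr7:6729001-6730000) with 79.95 H3K27ac reads and local enrichment of 1.34, 0.89 and 0.94 with anti-FLAG, 1.05 and 1.11 for anti-GZF1 in the wild types, 0.67 in the control, 0.73 in the knockout and 0.93 in the input. Trappc9, a subunit of a vesicle tethering complex, was at 1.48 and Cdkn1c, a cell cycle inhibitor, at 1.35, with an input of 1.62.

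The bin chr12:110278001-110279000 holds the start of Dio3os and was counted for Dio3, the deiodinase gene at the end of the imprinted Dlk1-Dio3 domain. With the same antibody, the RGM libraries stood higher there than those of Cas9. H3K27ac held 52.1 reads and a local enrichment of 1.31, and the input 3 reads and −0.26. Anti-FLAG was at 0.08 from 37.85 reads in Cas9 and 0.92 from 97.65 reads in RGM. Wild-type anti-GZF1 was at 0.76 in Cas9 and 1.95 in RGM, and the control and knockout were at −0.41 and −0.73. RGM was thus the higher line with both antibodies, and H3K27ac was measured here in Cas9 alone.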

How the data were processed

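The authors deposited estimated counts of reads per 1 kb bin (expected counts, not scaled, a read at an edge being split between bins). The submitters' processing notes name cutadapt, Bowtie2 2.5.4, SAMtools, deepTools and the mm10 build; duplicate and mapping quality filters are not given in the sources used here. Of 12 libraries 4 were not analysed here. Columns were divided by their autosomal mean. Bin totals were rounded only for intervals. Starts and promoters came from RefSeq tables on GRCm38.p6. Regions merge members with at most 1 bin between them.

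Named are the 20 regions highest in H3K27ac (50 or more reads, input density 0.25 to 3), the 10 with the most member bins, up to 4 list genes with a member bin, the 5 members highest and 5 lowest in Cas9 wild-type anti-GZF1, and bins at each threshold. The members and lists were chosen with earlier results of these data known. The scoring was tested on simulated data. Tools were scipy 1.17.1, pandas 2.3.3 and numpy 2.4.6 in Python 3.11.15. With 1 library per group, no model was fitted across libraries. One ribosomal protein gene is not reported here by name.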

Additional observations from a re-analysis of the deposited data

How the results depend on the processing

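The number of members changed least with the scaling and the width of the background, and more with every other choice. It was 4054 with a pseudocount of 0.25 and 664 with 1, 7273 and 307 with H3K27ac thresholds of 1 and 1.5, 223 with an anti-FLAG limit of 0.5, 4650 with no anti-FLAG limit, 893 with the input density kept to 0.25 to 3, and 770 with 50 or more H3K27ac reads. Scaling to the autosomal median gave 1457 and a background of 25 bins on each side 1109. Of the main 1341 members, 862 were kept at a pseudocount of 0.25, 325 at 1, 1283 with median scaling and 666 with 25 bins, so the pseudocount and background decide which bins are members even where the number is close.

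In the same order (pseudocounts 0.25 and 1, H3K27ac thresholds 1 and 1.5, anti-FLAG limit 0.5, no limit, input kept, 50 or more reads), the median Cas9 wild-type anti-GZF1 value, 0.83 as reported, was 0.53, 0.91, 0.54, 0.97, 0.40, 1.18, 0.76 and 0.95, and 0.91 with 25 bins. The median input value, 0.69 as reported, was 0.59 with a pseudocount of 0.25, 0.52 and 0.80 with thresholds of 1 and 1.5, 0.41 with the anti-FLAG limit of 0.5, 1.00 with no limit and 0.59 with the input kept. The percentage with a start in the bin or beside it, 43.5% as reported, was in the first order 17.3%, 73.6%, 25.2%, 66.1%, 11.2%, 54.8%, 37.1% and 69.5%, with 40.3% under median scaling, 54.3% with 25 bins, 35.3% for the bin itself and 47.1% within 5 bins. Neither median changed sign under its 10 alternatives, and the number and the percentage cannot do so. The alternatives that keep fewer or more bins change the set by construction; for the others the cause was not tested.

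No paired analysis was possible because each group has 1 library; for the same reason no replicate was left out. With a mean of 3.93 input reads per bin, a single bin's input value is imprecise, and a member with an interval that reaches a limit cannot be told from a bin beyond it.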

Other observations

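Symbol families, chosen after the values were seen, differed in how often a start fell in a member bin, against 550 of 25748 genes (2.14%) in all; 2023 (7.86%) had a start in a tagged H3K27ac-high bin and none in a member bin. Of 40 Nduf genes, which encode subunits and assembly factors of respiratory complex I, 6 did (15.0%), with 3 more (7.5%) in a tagged H3K27ac-high bin. They were Ndufaf8, Ndufa8, Ndufb4, Ndufb10, Ndufs8 and Ndufb8, with H3K27ac local enrichment of 1.95, 1.91, 1.80, 1.69, 1.48 and 1.29. Of 22 Polr genes of the RNA polymerases 4 did (18.2%), Polr2j at 1.49, Polr2e at 1.44, Polr2f at 1.41 and Polr2c at 1.39, and 4 more were tagged (18.2%). Of 25 Mediator genes 4 did (16.0%), Med28 at 1.57, Med25 at 1.47, Med13l at 1.42 and Med4 at 1.31, and 4 more were tagged (16.0%). Of 330 Zfp genes 16 did (4.85%), led by Zfp526 at 1.65 and Zfp740 at 1.63, and 33 were tagged (10%). Of 69 Mrp genes of the mitochondrial ribosome 3 did (4.35%) and 13 were tagged (18.8%). None of 938 Olfr genes had a start in a member or a tagged bin. Families of this size carry no test here.

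Members per Mb ran from 0.356 on chromosome 3 to 0.908 on chromosome 7, which holds 132. On chromosome X, which the rule leaves out, 110 of 171032 bins met it at the autosomal scaling, 21 of them with 50 or more H3K27ac reads, and their median Cas9 wild-type anti-GZF1 local enrichment was 0.73.

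The member with the most knockout reads was not a promoter. The bin chr16:3351001-3352000, with no gene, held 436.05 knockout and 375.85 control reads, densities of 13.2 (12.0 to 14.5) and 10.5 (9.48 to 11.6), against 16 H3K27ac reads, 15 with anti-GZF1 in Cas9 wild type and 8.45 in the input, whose density was 2.15 (0.880 to 4.02).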
